A study of Mus musculus with 2 samples.

Results

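The genes described are the 9 mouse genes of the TRiC chaperonin, chosen by name out of the 30052 gene symbols listed in either library: Tcp1, Cct2, Cct3, Cct4, Cct5, Cct6a, Cct7 and Cct8, which encode the 8 subunits of the ring in somatic cells, and Cct6b, the testis paralogue of Cct6a. All 9 were listed and counted in both libraries. Poly(A) RNA of single testis cells from adult mice was sequenced in 1 Nsun7 knockout (KO) library and 1 wild-type (WT) library. Nsun7 encodes an RNA methyltransferase-like protein of the NOL1/NOP2/SUN family. The sources used here do not give the strain, the exact age, the number of animals behind each library or the deleted part of Nsun7, and name no sort for cell types.

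TRiC, also called CCT, is the chaperonin of the eukaryotic cytosol: a pair of stacked rings, each built of 8 different but related subunits, that encloses newly made proteins and folds them with the use of ATP. Actin and tubulin are its best known clients, and prefoldin and the phosducin-like proteins work beside it. In the testis, where spermatids build a microtubule manchette and a flagellum, Cct6b is known as a second form of the zeta subunit that can stand in the ring in place of Cct6a. Tcp1 was first known as a gene of the mouse t-complex, a chromosome 17 region linked to male transmission ratio.

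After the cell filter 13869 KO cells and 15139 WT cells remained. Their median numbers of unique molecular identifiers (UMIs) were 12020 in KO and 8723 in WT, and the deposited counts summed to 210531446 and 220247156. Cells were clustered without the 9 genes and named from marker lists, so every class name stands for "like that type". Germ cells fell into spermatogonia (537 KO and 1279 WT cells), early spermatocytes (323 and 778), late spermatocytes (1282 and 3764), round spermatids (1133 and 1936), intermediate spermatids (855 and 539), elongating spermatids with high Tnp1 (5226 and 1987) and elongating spermatids with low Tnp1 (2244 and 2422). Transition protein 1 (Tnp1) and the protamines replace histones as spermatids condense. Somatic classes were Leydig cells (347 and 327), Sertoli cells (465 and 604), macrophages (182 and 239) and interstitial stroma (141 and 300), and 1134 KO and 964 WT cells stayed unnamed. Nsun7 itself stood at 40.9 counts per 1000000 (CPM) over all KO cells and 174 CPM over all WT cells, and the sources do not say whether the counted stretch lies in the deleted part. With 1 library per genotype no difference between genotypes has a replicate check, so no test was made. Intervals are given at 95% and hold the counting error alone.

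Free RNA in the droplets can set a floor under low values. Deposited barcodes held at least 1001 counts each, so empty droplets were not measured and the floor was predicted. In germ cell classes, the Leydig genes Insl3, Cyp17a1, Cyp11a1 and Star stood at 5.20% to 7.08% of their library-wide level in KO and at 6.62% to 11.4% in WT. The same share of each TRiC gene's library-wide level is given below as its predicted free RNA. In somatic classes the share was taken from Prm1, Prm2, Tnp1 and Tnp2.

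All 9 genes lie on GRCm38 chromosomes in the GENCODE M21 annotation. Tcp1 is on chromosome 17 (12915701 to 12925067, plus strand), Cct2 on chromosome 10 (117051001 to 117063814, minus strand) and Cct3 on chromosome 3 (88297116 to 88321767, plus strand). Cct4 is on chromosome 11 (22990519 to 23003780, plus strand), Cct5 on chromosome 15 (31590800 to 31601804, minus strand) and Cct7 on chromosome 6 (85451514 to 85468475, plus strand). Cct8 is on chromosome 16 (87483326 to 87495873, minus strand). The paralogues lie apart, with Cct6a on chromosome 5 (129786998 to 129846371, plus strand) and Cct6b on chromosome 11 (82719250 to 82764321, minus strand). Of the 9 genes, 8 are annotated as protein coding, and Cct6a carries the biotype processed transcript there although RefSeq lists it as protein coding. Exons of opposite-strand genes overlap those of Tcp1 (Mrpl18 and Acat3), Cct6a (Psph), Cct7 (Pradc1) and Cct8 (Usp16), and the sources do not say whether counting used strand, so reads in those overlaps cannot be told apart.

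Within each library, the summed level of the 8 somatic subunit genes was highest in late spermatocytes and fell steeply when spermatids began to condense. Along the germ cell classes the sum was 4146, 3184, 6087, 4274, 1221, 866 and 978 CPM in KO, from spermatogonia to elongating spermatids with low Tnp1. The same 7 classes had 4371, 3565, 6182, 4348, 1510, 1096 and 1211 CPM in WT. Both libraries thus had the same highest class and the same lowest class, the elongating spermatids with high Tnp1. The ratio of highest to lowest was 7.03-fold in KO and 5.64-fold in WT.

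The steps between neighbouring classes were described by how many of the 9 genes differed at least 2-fold, beside the share that did so among all genes averaging at least 50 CPM. In late over early spermatocytes, 5 genes were 2-fold higher in KO (31.5% of all genes) and 4 in WT (30.1%), and none was 2-fold lower (33.3% and 32.5% of all genes). Tcp1, Cct5, Cct6b and Cct7 were 2-fold higher in both libraries, and Cct4 was 2.06-fold higher in KO and 1.92-fold higher in WT. In round spermatids over late spermatocytes, Cct6a alone was 2-fold lower in each library (17.4% of all genes in KO and 18.0% in WT). Intermediate over round spermatids showed the broadest step: 8 of 9 genes were 2-fold lower in KO and 7 of 9 in WT, against 40.9% and 39.3% of all genes. Cct6b was the gene below that limit in both, at 1.57-fold lower in KO and 1.58-fold lower in WT, and Cct7 was 2.05-fold lower in KO and 1.73-fold lower in WT. The median log2 ratio of the 9 genes at this step was -1.87 in KO and -1.52 in WT, beside -0.59 and -0.56 over all genes. Of the 9 genes in elongating spermatids with high Tnp1 over intermediate spermatids, 4 were 2-fold lower in KO (23.5%) and 2 in WT (22.7%), namely Cct4 and Cct7 in both and Cct3 and Cct5 in KO. From spermatogonia to early spermatocytes only Cct5 in KO passed the limit, at 2.06-fold lower (7.25% of all genes), and no gene did in WT (9.26%). No gene was 2-fold lower in the low than in the high Tnp1 class (26.5% of all genes in KO and 28.3% in WT).

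**Figure D1:**
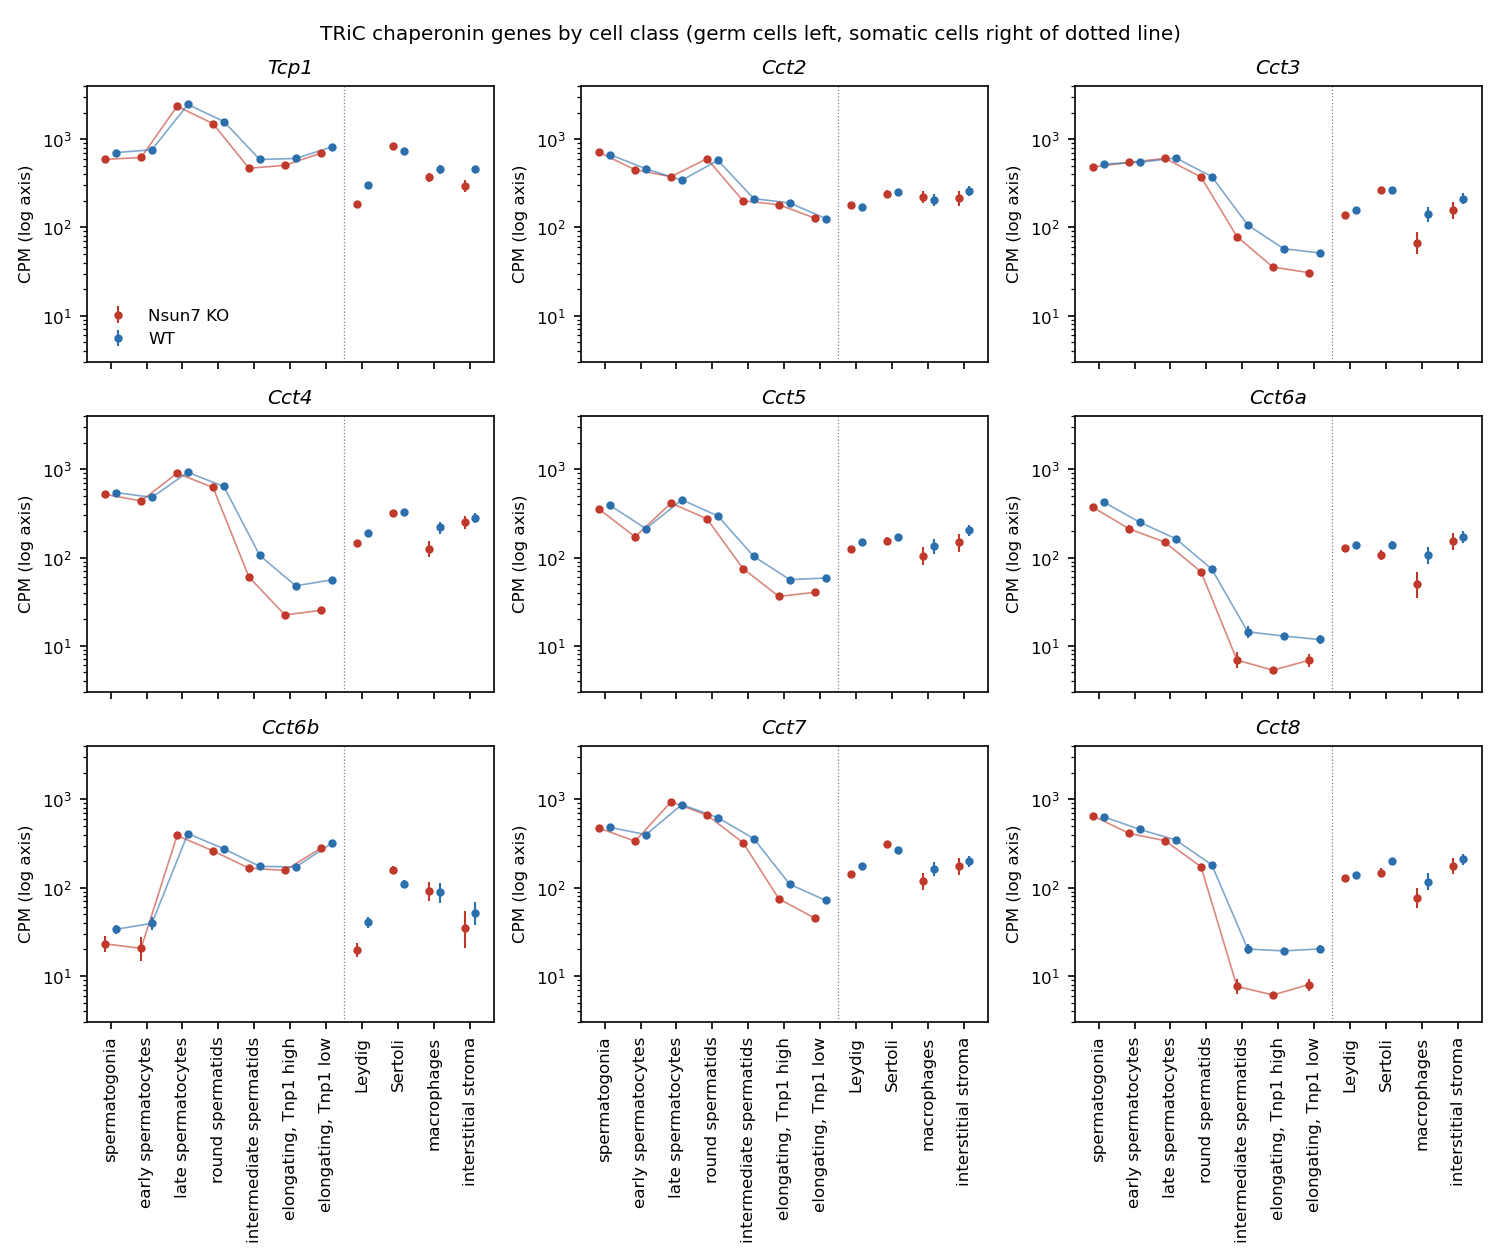
CPM of each of the 9 TRiC genes (log axis) in 7 germ cell classes and 4 somatic classes, with Nsun7 KO points in red left of WT points in blue and 95% Poisson intervals as bars, 1 library each. Between round and intermediate spermatids Cct8, Cct4 and Cct6a drop 22.7-fold, 10.4-fold and 10.03-fold in KO and 8.99-fold, 6.04-fold and 5.14-fold in WT, while Cct6b stays between 157 and 390.2 CPM in KO and between 172 and 409 CPM in WT from late spermatocytes on.

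The clearest pattern in the family was the exchange of the zeta subunit genes. Cct6a, the form of somatic and early germ cells, fell in CPM at every step from spermatogonia to intermediate spermatids. Cct6b, the testis form, was near the free RNA floor before late spermatocytes and then became the main source of zeta counts. The promoter windows of this pair are shown because the members' levels run in opposite directions here. Each is the 300-base RefSeq window of GRCm38.p6 whose annotated start lies 50 bases before the 3′ end. Capitals mark CCAAT and TGACG, read on either strand (CCAAT as ATTGG and TGACG as CGTCA on the other strand). The Cct6a window is chr5:129787106-129787405 on the plus strand, and the Cct6b window is chr11:82764272-82764571, printed on its minus strand.
Cct6a: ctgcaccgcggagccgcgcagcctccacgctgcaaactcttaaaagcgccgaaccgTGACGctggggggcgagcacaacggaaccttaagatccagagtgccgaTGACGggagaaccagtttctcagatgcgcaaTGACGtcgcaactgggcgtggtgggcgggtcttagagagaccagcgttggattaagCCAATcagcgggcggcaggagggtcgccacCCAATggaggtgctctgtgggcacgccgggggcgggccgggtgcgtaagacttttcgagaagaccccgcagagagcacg
Cct6b: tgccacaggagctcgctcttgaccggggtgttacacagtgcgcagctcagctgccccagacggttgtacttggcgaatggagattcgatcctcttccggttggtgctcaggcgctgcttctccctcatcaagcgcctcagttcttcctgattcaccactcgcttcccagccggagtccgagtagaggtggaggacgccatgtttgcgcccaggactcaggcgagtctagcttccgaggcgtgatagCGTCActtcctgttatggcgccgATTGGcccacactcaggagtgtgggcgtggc

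All motifs were searched on both strands. The Cct6a window held 2 copies of CCAAT, 3 of TGACG and 3 of GGGCGG. The Cct6b window held 1 copy of CCAAT, at base 270 from its 5′ end and so within the transcribed stretch, 1 of TGACG at base 247, and 0 of GGGCGG. Among the 8 members with a RefSeq window, 7 held GGGCGG in at least 1 window and Cct6b was the exception, while 35.7% of all 32851 windows held it. TGACG was in 2 of the 8 members, Cct6a and Cct6b, and in 20.8% of all windows. CCAAT was in 5 of 8 members (Tcp1, Cct3, Cct6a, Cct6b and Cct7) and in 37.4% of windows. The full palindrome TGACGTCA, which contains TGACG, was in none of the 8 and in 1.79% of windows. The heat shock pattern GAANNTTC was in 1 member, Cct2, and in 7.86%. Cct2 and Cct5 have more than 1 window and Cct4 has none in the table. A match in these letters is a description of the window and does not show a bound site. Only 23 bases separate Cct6b from Zfp830, which is transcribed in the other direction. Zfp830 had 60.4 CPM in KO and 57.5 CPM in WT late spermatocytes and 4.96 and 7.32 CPM in elongating spermatids with low Tnp1, where Cct6b had 280.1 and 318 CPM.

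Cct6b had 23.1 CPM (18.7 to 28.2) in KO and 33.8 CPM (30.0 to 37.9) in WT spermatogonia, with predicted free RNA of 13.1 and 28.8 CPM. Early spermatocytes had 20.6 CPM in KO and 39.5 CPM in WT, with predicted free RNA of 12.5 and 31.3 CPM. Most of the level before late spermatocytes was thus matched by that floor. Late spermatocytes had 390.2 CPM (379 to 402) in KO and 409 CPM (405 to 414) in WT, the highest class in each library. That was 18.98-fold over early spermatocytes in KO and 10.4-fold in WT. Round spermatids had 261 and 276 CPM, intermediate spermatids 166 and 174 CPM, and elongating spermatids with high Tnp1 157 and 172 CPM, in KO and WT. As a share of all counts, the level was up again in elongating spermatids with low Tnp1, 1.79-fold in KO at 280.1 CPM and 1.85-fold in WT at 318 CPM. Cct6b counts per cell went down at this step, from 3.33 to 2.51 in KO and from 3.51 to 2.87 in WT. Median UMIs per cell fell from 18108.5 to 7955.5 in KO and from 17087 to 7445 in WT.

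Cct6a ran the other way. It had 369.7 CPM in KO and 423 CPM in WT spermatogonia, 211 and 251 CPM in early spermatocytes, 149 and 163 CPM in late spermatocytes, and 69.0 and 73.9 CPM in round spermatids. In intermediate spermatids 6.88 CPM (5.57 to 8.41) were left in KO and 14.4 CPM (12.2 to 16.9) in WT, of which 2.12 and 7.44 CPM were predicted free RNA. By CPM, spermatogonia were thus the highest class for Cct6a and condensing spermatids the lowest in both libraries. Cct6a counts per cell, at unlike depths, were 2.86 in KO and 2.84 in WT spermatogonia. In late spermatocytes they were 1.31 and 3.12.

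Together, the pair gave a share that rose along the germ line. Cct6b made up 5.88% of the Cct6a and Cct6b counts in KO and 7.39% in WT spermatogonia, then 8.87% and 13.6% in early spermatocytes. In late spermatocytes the share was 72.3% (71.2% to 73.5%) in KO and 71.5% (71.0% to 71.9%) in WT, and in round spermatids 79.1% and 78.9%. Intermediate spermatids had 96.03% and 92.4%, elongating spermatids with high Tnp1 96.7% and 93.0%, and those with low Tnp1 97.6% and 96.4%. The largest single step lay between early and late spermatocytes in both libraries. Since Cct6b has 1871 exonic bases in the annotation and Cct6a 3620, counts per exonic base gave higher shares: 10.8% and 13.4% in KO and WT spermatogonia, 83.5% and 82.9% in late spermatocytes, and 98.8% and 98.1% in elongating spermatids with low Tnp1. Both scales are shown because the sources do not say whether only 3′ ends were captured.

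**Figure D2:**
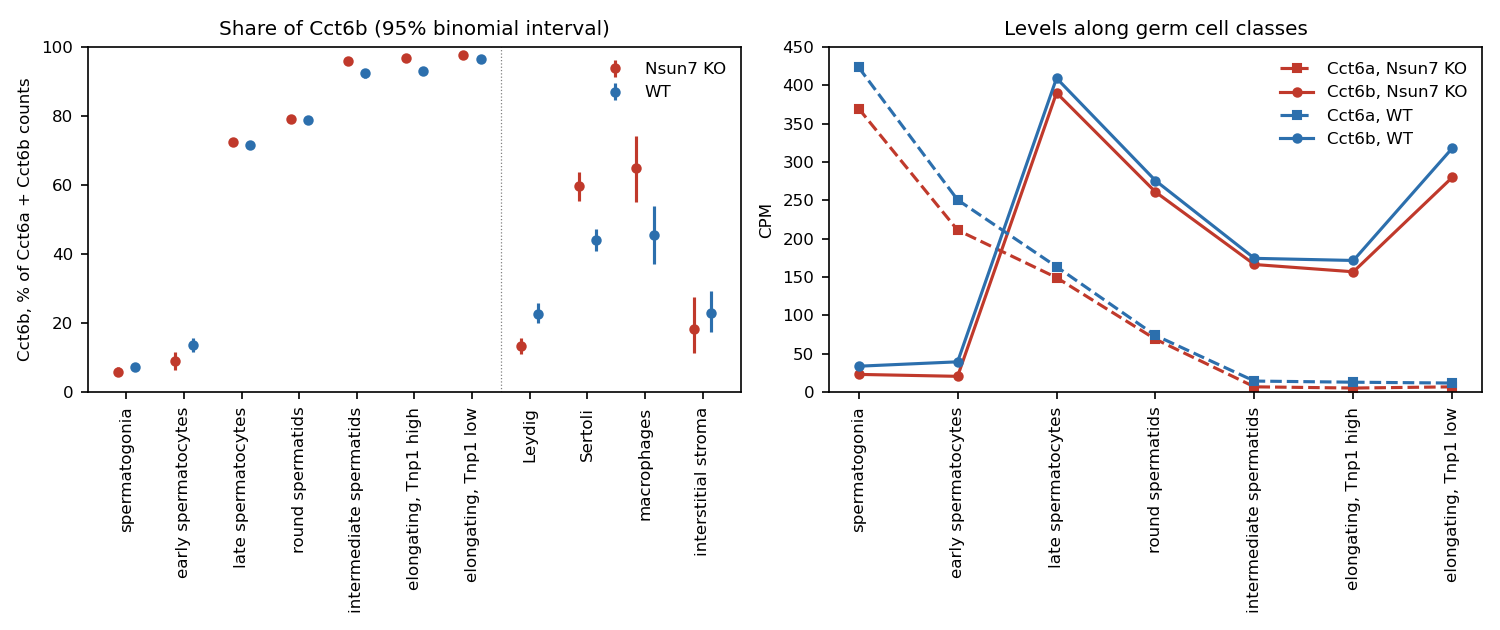
Left, Cct6b counts as a percent of Cct6a plus Cct6b counts per class with exact 95% binomial intervals, Nsun7 KO in red left of WT in blue. Right, CPM of Cct6a (dashed, squares) and Cct6b (solid, circles) along the 7 germ cell classes, where the lines cross between early and late spermatocytes in both libraries.

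Shares of cells with a UMI were described as well. At equal depth they largely follow the levels given above, so they do not show an exchange within single cells. After each cell was thinned to 1000 UMIs, 32.8% of KO and 31.3% of WT late spermatocytes held a Cct6b UMI (70.8% and 82.8% before thinning, at medians of 3536 and 10274 UMIs). Leydig cells gave 2.02% in KO and 4.89% in WT (21.04% and 30.9% unthinned, at medians of 14178 and 10473 UMIs). In this somatic class predicted free RNA came to nearly all of the measured Cct6b. Spermatogonia gave 2.98% and 4.07%, within the intervals of the Leydig shares (0.815% to 4.11% in KO and 2.82% to 7.82% in WT). Those intervals rest on 7 and 16 Leydig cells with a UMI, too few to separate low expression from background. By level, Cct6b in spermatogonia lay above its predicted free RNA, at 23.1 against 13.1 CPM in KO and 33.8 against 28.8 CPM in WT. Thinned shares for Cct6a were 29.2% and 32.1% in spermatogonia, 14.7% and 14.7% in late spermatocytes, and 0.536% and 1.11% in elongating spermatids with high Tnp1. At 1000 UMIs, at least 1 UMI of each paralogue was found in 4.13% of KO and 4.62% of WT late spermatocytes, against 0.576% and 0.917% of Leydig cells and 0.559% and 1.17% of spermatogonia. Without thinning, at unlike depths, the shares were 38.1% and 62.6% in late spermatocytes and 19.9% and 24.8% in Leydig cells.

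The other genes that peaked in late spermatocytes were Tcp1, Cct4, Cct5, Cct7 and, by a narrow margin, Cct3. Tcp1, the alpha subunit, had 589, 621, 2361, 1498, 468, 505 and 694 CPM along the 7 KO germ cell classes. In the 7 WT classes it had 705, 758, 2469, 1584, 589, 604 and 816 CPM. It was 3.80-fold higher in late than in early spermatocytes in KO and 3.26-fold in WT. After the fall to intermediate spermatids its CPM was 1.37-fold and 1.35-fold higher in the last class than in the one before. Tcp1 counts per cell were lower in that last class, at 6.23 against 10.7 in KO and 7.37 against 12.4 in WT.

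Cct7, the eta subunit, had 472, 336, 939, 664, 324, 74.6 and 45.1 CPM in the KO classes. It had 483, 399, 874, 622, 359.6, 109 and 71.8 CPM in the WT classes. Its main fall came a class later than that of most members: 4.34-fold in KO and 3.29-fold in WT between intermediate spermatids and elongating spermatids with high Tnp1.

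Cct4, the delta subunit, had 520.1, 438, 902, 622, 60.03, 22.4 and 25.3 CPM in the KO classes. In WT it had 544, 481, 924, 638, 106, 47.8 and 55.9 CPM. The step from round to intermediate spermatids was 10.4-fold down in KO and 6.04-fold down in WT. In elongating spermatids with high Tnp1, predicted free RNA was 7.67 of the 22.4 CPM in KO and 34.2 of the 47.8 CPM in WT.

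Cct5, the epsilon subunit, dipped in early spermatocytes. It had 353, 171, 414, 274, 75.0, 36.2 and 40.5 CPM in the KO classes and 391, 212, 451, 296, 103, 56.3 and 58.6 CPM in the WT classes. Cct3, the gamma subunit, varied little up to late spermatocytes, with 484, 545, 605, 373, 78.6, 35.5 and 30.7 CPM in KO and 523, 547, 612, 376, 106, 57.4 and 51.4 CPM in WT. Its late spermatocyte level was 1.11-fold its early spermatocyte level in KO and 1.12-fold in WT.

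By CPM, Cct2 and Cct8 were, with Cct6a, highest in spermatogonia. Counts per cell, at unlike depths, did not all follow this order. Cct8 had 5.03 counts per cell in KO and 4.26 in WT spermatogonia, and 2.99 and 6.62 in late spermatocytes. Cct2 had 5.48 and 4.48 in spermatogonia, and 7.08 and 9.29 in round spermatids. Cct8, the theta subunit, which lies beside the zeta subunit in the ring of yeast and cattle, had 649.96, 412, 341, 173, 7.60, 6.09 and 7.99 CPM along the KO classes. In the WT classes it had 635, 457, 347, 181, 20.2, 19.2 and 20.3 CPM. The fall from round to intermediate spermatids was 22.7-fold in KO and 8.99-fold in WT, the largest of the 9 genes in each library. What was left there was close to the floor, since predicted free RNA was 3.87 of 7.60 CPM in KO and 14.5 of 20.2 CPM in WT. At 1000 UMIs a Cct8 UMI was found in 46.9% of KO and 45.5% of WT spermatogonia, and in 0.670% and 1.81% of elongating spermatids with high Tnp1.

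Cct2, the beta subunit, had a second high in round spermatids. It had 708, 449, 376, 601, 200.4, 181 and 127 CPM in the KO classes and 668, 461, 342, 576, 212, 189 and 126 CPM in the WT classes. It was the only one of the 9 genes that was higher in round than in late spermatocytes, by 1.60-fold in KO and 1.68-fold in WT. In intermediate spermatids it was 2.997-fold lower than in round spermatids in KO and 2.72-fold lower in WT, close to the falls of Tcp1 (3.20-fold and 2.69-fold).

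The make-up of the family's counts changed accordingly. Shares are of counts, and genes of unlike length are not compared by molecule. Tcp1 held 14.1% of the counts of the 9 genes in KO and 16.0% in WT spermatogonia, 36.4% and 37.5% in late spermatocytes, and 55.2% and 53.3% in elongating spermatids with low Tnp1. Cct6b held 0.554% and 0.767% in spermatogonia, 6.02% and 6.21% in late spermatocytes and 22.3% and 20.8% in elongating spermatids with low Tnp1. Cct8 went the other way, with 15.6% and 14.4% in spermatogonia, 5.27% and 5.26% in late spermatocytes and 0.636% and 1.32% in the last class. Cct7 reached 23.3% in KO and 21.4% in WT intermediate spermatids, its highest share, and held 3.58% and 4.69% in the last class. Tcp1, Cct6b and Cct2 therefore supplied most counts of the family in elongating spermatids of both libraries.

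**Figure D3:**
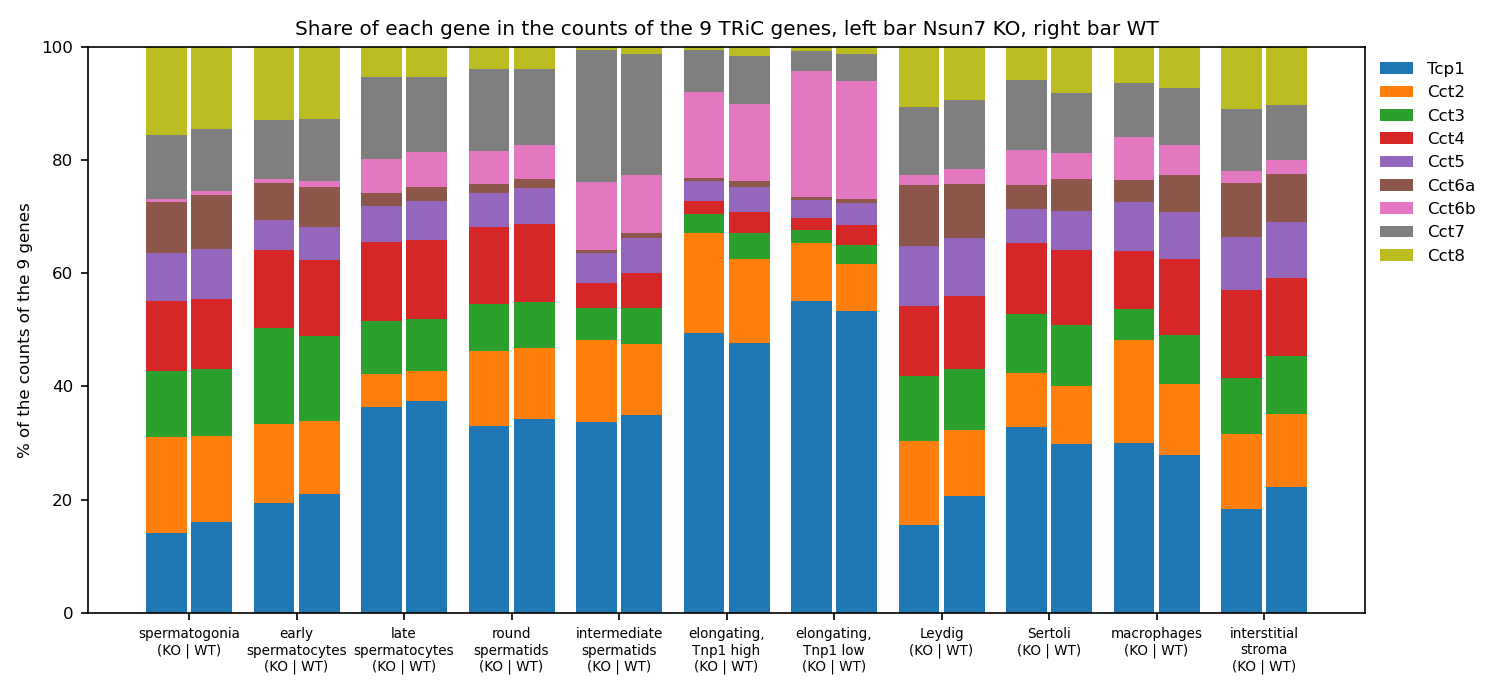
Percent of the summed counts of the 9 TRiC genes held by each gene in every class, with the left bar of each pair from Nsun7 KO and the right bar from WT. Tcp1 and Cct6b widen and Cct8, Cct4 and Cct6a narrow from spermatogonia to elongating spermatids, where Tcp1 reaches 55.2% in KO and 53.3% in WT.

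The comparison of genotypes asked whether these levels differed between KO and WT within a class. Up to round spermatids the 8 somatic subunit genes lay close together, Cct6b was lower in KO spermatogonia and early spermatocytes at levels near the free RNA floor, and in condensing spermatids the low members were lower in KO while Tcp1, Cct2 and Cct6b differed by at most 1.26-fold. The log2 ratio of KO over WT for the sum of the 8 genes was -0.08 in spermatogonia, -0.16 in early spermatocytes, -0.02 in late spermatocytes and -0.02 in round spermatids. It was -0.31 (-0.34 to -0.28) in intermediate spermatids, -0.34 (-0.36 to -0.32) in elongating spermatids with high Tnp1 and -0.31 (-0.34 to -0.28) in those with low Tnp1. Over all cells of a library the sum was 1602 CPM in KO and 3635 CPM in WT, 2.27-fold lower in KO. Late spermatocytes, its highest class, made up 9.24% of KO cells and 24.9% of WT cells.

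Counts of the 9 genes at least 1.5-fold lower in KO were set beside the share of all genes averaging at least 50 CPM. None of the 9 was lower in spermatogonia (0.829% of all genes), late spermatocytes (0.107%) or round spermatids (0.0265%). In early spermatocytes 1 gene was lower, Cct6b (3.02%, or 8.97% of all genes averaging at least 10 CPM), with a log2 ratio of -0.94 (-1.46 to -0.45) at levels of 20.6 CPM in KO and 39.5 CPM in WT. Counts of lower genes were 3 in intermediate spermatids (2.18%), 5 in elongating spermatids with high Tnp1 (2.94%) and 5 in those with low Tnp1 (2.55%). Many of these members were below 50 CPM, and among all genes averaging at least 10 CPM the share was 8.48%, 12.0% and 13.3%. In both elongating classes 8 of the 9 members averaged at least 10 CPM. Cct6a, counted among the 5 lower genes in each, did not, so those counts and shares are not fully alike. At 50 CPM or more 4 members were measured in the high Tnp1 class (Tcp1, Cct2, Cct6b and Cct7) and 0 of them were 1.5-fold lower. By the same filter 1 of 7 was lower in intermediate spermatids (Cct4) and 1 of 4 in the low Tnp1 class (Cct7). None of the 9 was 1.5-fold higher in KO in any class, where the share of all genes at 50 CPM was 0.415% in spermatogonia, 0.948% in early and 3.09% in late spermatocytes, 0.345% in round spermatids and 0.0% in the condensing classes. In Leydig cells, Sertoli cells, macrophages and stroma it was 1.28%, 15.3%, 7.9% and 6.1%. The median log2 ratio of all 9 genes, taken without a lower limit, was -0.44, -0.64 and -0.67 in the 3 condensing classes. Over all genes at 10 CPM or more it was -0.10, -0.11 and -0.06.

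Cct8 had the lowest ratio in all 3 condensing classes. It was 2.65-fold lower in KO intermediate spermatids, 3.15-fold lower in elongating spermatids with high Tnp1 (log2 ratio -1.66, -1.81 to -1.51) and 2.53-fold lower in those with low Tnp1. Cct6a was 2.09-fold, 2.44-fold and 1.72-fold lower, and Cct4 1.76-fold, 2.14-fold and 2.21-fold lower. Cct3 was 1.62-fold lower in the high Tnp1 class and 1.67-fold lower in the low Tnp1 class, Cct5 was 1.55-fold lower in the high Tnp1 class, and Cct7 was 1.59-fold lower in the low Tnp1 class. In late spermatocytes the ratios of the 9 genes ran only from -0.13 (Cct6a) to 0.14 (Cct2) on the log2 scale, and in round spermatids from -0.11 (Cct5) to 0.10 (Cct7).

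Predicted free RNA was a large part of the low values. In elongating spermatids with high Tnp1 it was 3.35 of 6.09 CPM for Cct8 in KO and 14.1 of 19.2 CPM in WT, and 1.84 of 5.30 CPM for Cct6a in KO and 7.23 of 12.9 CPM in WT. After subtraction the log2 ratio of Cct4 in that class was 0.11 instead of -1.10, and that of Cct6a in the low Tnp1 class was 0.30 instead of -0.78. The number of genes at least 1.5-fold lower was then 1, 2 and 0 in the 3 condensing classes. For Tcp1, by contrast, predicted free RNA was 36.8 of 505 CPM in KO and 100.3 of 604 CPM in WT. Library-wide levels, which set the prediction, were 64.4 CPM in KO and 202 CPM in WT for Cct8.

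**Figure D4:**
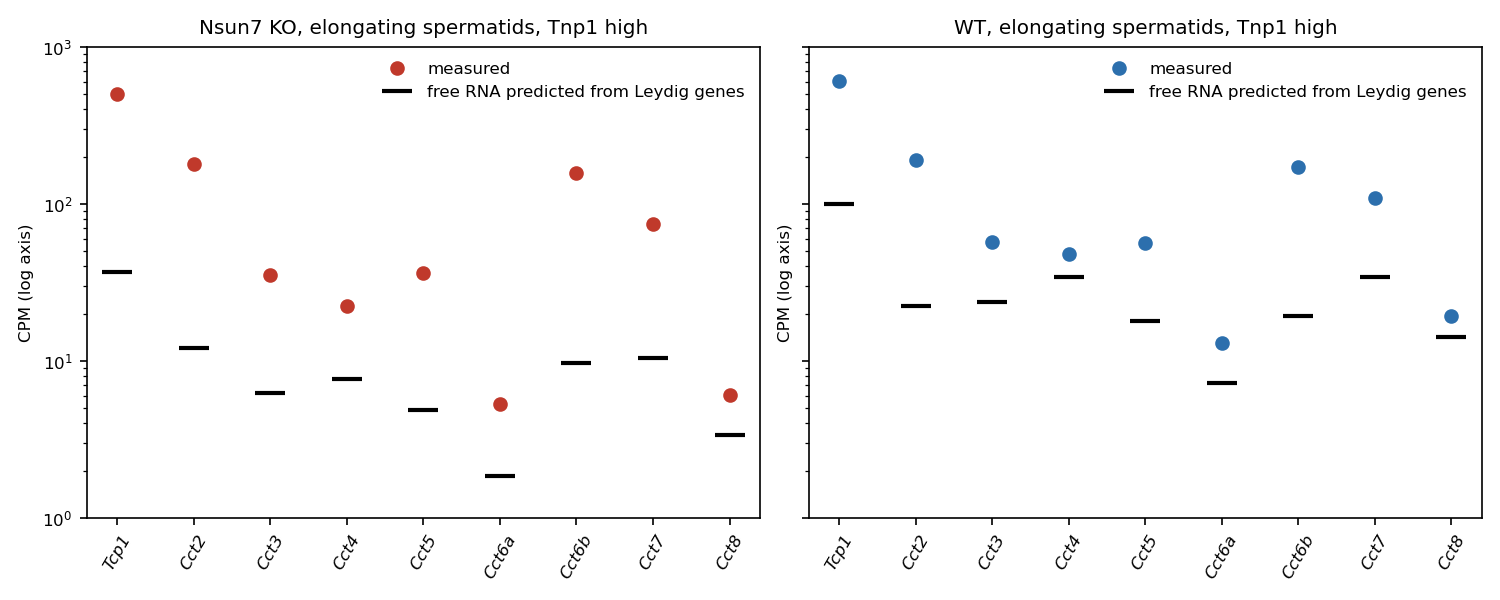
Measured CPM (circles) and CPM of free RNA predicted from 4 Leydig genes (bars) for the 9 TRiC genes in elongating spermatids with high Tnp1, on a log axis, Nsun7 KO left and WT right. Circles and bars lie closest for Cct8, Cct6a and Cct4 and far apart for Tcp1, Cct2 and Cct6b.

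Different clusters held the elongating classes in the 2 libraries. In the high Tnp1 class KO cells were mainly in clusters 1 (2118 cells), 13 (1381) and 2 (924), and WT cells mainly in clusters 16 (1288) and 12 (580). In the low Tnp1 class KO cells were mainly in cluster 0 (1436) and WT cells in cluster 15 (1814). Within clusters shared by both, Cct8 had 5.82 CPM in KO and 18.0 CPM in WT in cluster 12, 10.97 and 19.96 CPM in cluster 16, and 13.8 and 26.6 CPM in cluster 14. Cct4 had 21.4 and 45.2 CPM, 33.2 and 48.1 CPM, and 20.1 and 71.7 CPM in these clusters. Both genes were lower in KO in all 3 clusters, before any subtraction of predicted free RNA. Over the whole high Tnp1 class, predicted free RNA was 7.67 CPM in KO and 34.2 CPM in WT for Cct4. For Cct8 it was 3.35 and 14.1 CPM. In cluster 16, which held most WT cells of the high Tnp1 class, the other genes called there were closer. Cct3 had 55.4 CPM in KO and 60.4 CPM in WT, Cct5 44.5 and 59.3 CPM, and Cct6a 11.4 and 12.9 CPM. In cluster 12 these genes lay further apart, with Cct3 at 29.6 CPM in KO and 50.3 CPM in WT. Cct5 had 34.8 and 49.5 CPM in cluster 12, and Cct6a 7.45 and 13.3 CPM. Scaling by a trimmed mean (TMM) shifted log2 ratios up by 0.38 and 0.28 in the elongating classes, 0.21 in intermediate spermatids, 0.21 in Sertoli cells, 0.23 in macrophages and 0.11 in Leydig cells. Relative to it, the sum of the 8 genes stood at 0.04 in elongating spermatids with high Tnp1 and at -0.03 in those with low Tnp1, so the sign of the first depends on the scaling. The sums in late spermatocytes and round spermatids, which lay near 0, stood at 0.02 and 0.04 on that scale.

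**Figure D5:**
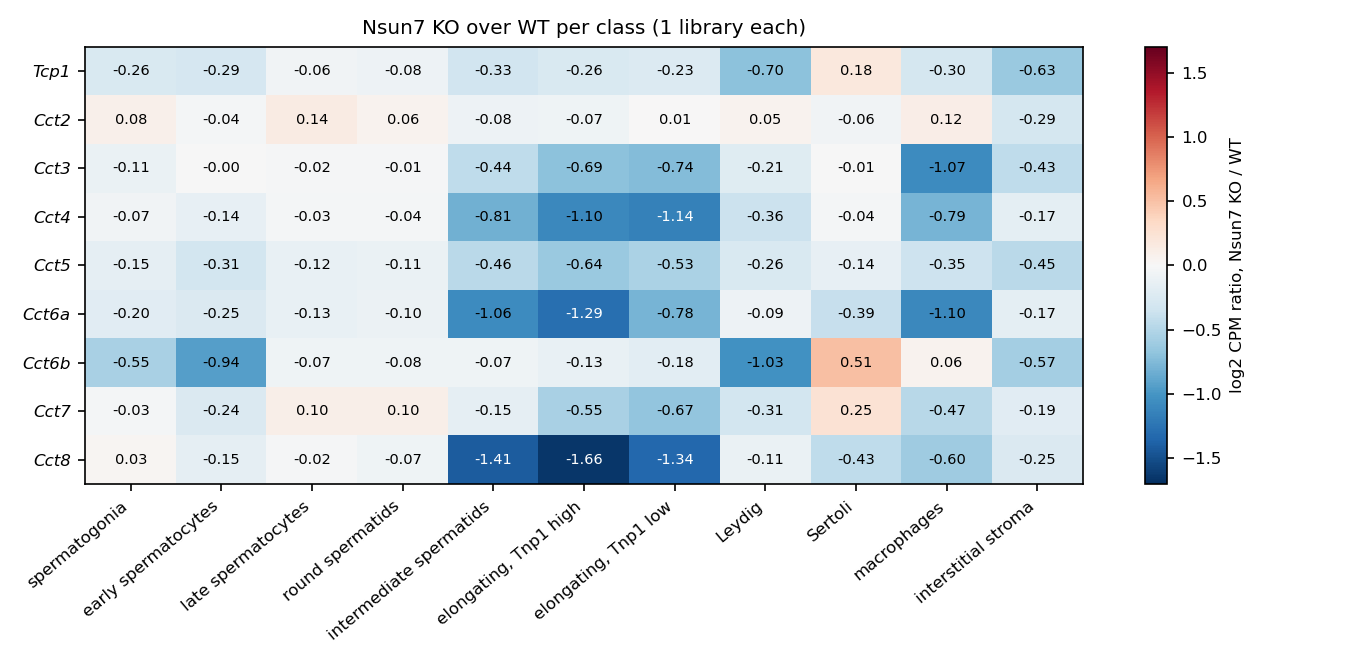
Log2 ratio of CPM, Nsun7 KO over WT, for each of the 9 TRiC genes (rows) in each class (columns), 1 library per genotype, blue where KO is lower. The late spermatocyte and round spermatid columns lie within 0.14 of 0, and the lowest value is -1.66 for Cct8 in elongating spermatids with high Tnp1.

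In somatic classes the sum of the 8 genes was 1175 CPM in KO and 1426 CPM in WT Leydig cells, 2381 and 2350 CPM in Sertoli cells, 1135 and 1541 CPM in macrophages, and 1571 and 1998 CPM in interstitial stroma. After subtraction of predicted free RNA it was 1023 CPM in KO and 901 CPM in WT Leydig cells, so the direction turned, and 1813 and 1436 CPM in Sertoli cells. Cct6a supplied most zeta counts in Leydig cells and stroma, where Cct6b made up 13.3% and 22.7%, and 18.4% and 22.9%. Cct6b had 19.8 CPM in KO and 40.5 CPM in WT Leydig cells, of which 17.6 and 39.7 CPM were predicted free RNA. In macrophages the prediction exceeded the measured level of Cct6b, at 107 against 92.2 CPM in KO and 232 against 88.2 CPM in WT, with Prm1, Prm2, Tnp1 and Tnp2 at 58.0% and 84.5% of their library-wide level, so this prediction is an upper guide there. Sertoli cells had the highest somatic level in both libraries, with Cct6b at 158 CPM (141 to 177) in KO and 111 CPM (101 to 122) in WT, and at 59.6% and 44.2% of zeta counts. Predicted free RNA was 65.6 and 69.1 CPM, and the 4 spermatid genes stood at 35.4% and 25.1% of their library-wide level in that class. At 1000 UMIs, 13.1% of KO and 14.1% of WT Sertoli cells held a Cct6b UMI, above the Leydig shares in both libraries. What spermatid RNA added to Cct6b in Sertoli cells was not tested.

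Lower counts in somatic KO classes were 2 in Leydig cells (Tcp1 and Cct6b, against 2.7% of all genes at 50 CPM and 8.68% at 10 CPM), 0 in Sertoli cells (20.5%), 4 in macrophages (Cct3, Cct4, Cct6a and Cct8, 17.1%) and 1 in interstitial stroma (Tcp1, 8.21%). Tcp1 in Leydig cells was at 185 CPM in KO and 301 CPM in WT, with 67.2 and 207 CPM predicted as free RNA, and its log2 ratio after subtraction was 0.32. Tcp1 in stroma was left with 221 CPM in KO and 248 CPM in WT after subtraction, which is under 1.5-fold. In WT macrophages the prediction exceeded the measured level for Cct3 (286 against 142 CPM), Cct4 (413 against 219 CPM) and Cct8 (170.3 against 117 CPM), and the log2 ratio of Cct6a after subtraction was 0.63. Macrophage and stroma values rest on few counts, such as 49 counts of Cct3 in KO and 103 in WT macrophages.

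How alike the genes ran was described over named clusters with 100 or more cells, 19 in KO and 18 in WT. These clusters share their library and its free RNA, and unnamed clusters were left out. The 28 pairs among the 8 somatic subunit genes had a median Pearson correlation of 0.84 in KO and 0.84 in WT, with ranges of 0.32 to 0.99 and 0.19 to 0.98. The 8 pairs with Cct6b had medians of -0.05 and -0.21, with ranges of -0.37 to 0.70 and -0.56 to 0.64. Their median Spearman correlations were 0.18 in KO and -0.02 in WT, so the sign in KO depends on the measure. Tcp1 gave the highest Pearson correlation with Cct6b, at 0.70 in KO and 0.64 in WT. Tcp1 with Cct6a gave the lowest of the 28 pairs, at 0.32 and 0.19. Over 22 class-by-library points, genes among those most like Cct6b, out of 3450 genes averaging at least 50 CPM, were Lin7a (Pearson correlation 0.99), Rpgrip1, Cptp and Lrrc63 (each 0.98). Those most like the sum of the 8 genes were Gtf2e2, Kpna2, Hcfc2, Cenpw and Tomm70a (0.97 each).

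Among genes that work beside TRiC, some kept their level in condensing spermatids and others lost it. Prefoldin, which hands actin and tubulin chains to TRiC, has 6 subunit genes, and all 6 were measured at 10 CPM or more in spermatogonia, 5 in late spermatocytes and 2 in elongating spermatids with high Tnp1. Pfdn5 had 274 CPM in KO and 258 CPM in WT spermatogonia and 493 and 451 CPM in elongating spermatids with high Tnp1, whereas Pfdn2 had 249 and 259 CPM and then 2.77 and 7.87 CPM. Pfdn1 stood at 165 and 165 CPM in spermatogonia, 253 and 266 CPM in late spermatocytes and 31.3 and 45.1 CPM in the high Tnp1 class. Of the prefoldin genes at 10 CPM or more, 0 of 5 were 1.5-fold lower in KO late spermatocytes (1.01% of all genes), 1 of 3 in intermediate spermatids (Pfdn6, 8.48%), 0 of 2 in the high Tnp1 class (12.0%) and 2 of 3 in the low Tnp1 class (Pfdn1 and Pfdn6, 13.3%). Pfdn6 had 8.54 CPM in KO and 13.4 CPM in WT in that last class. Pdcl2, the germ cell phosducin-like protein, had 1356 CPM in KO and 1464 CPM in WT late spermatocytes, against 46.9 and 94.3 CPM in spermatogonia, and 416 and 536 CPM in elongating spermatids with high Tnp1. Its relatives Pdcl and Pdcl3 had at most 2.23 CPM in KO and 3.43 CPM in WT late spermatocytes. Cct8l1, a Cct8-like gene, had 4.19 CPM in KO and 3.52 CPM in WT late spermatocytes, 63.0 and 60.7 CPM in round spermatids, 111 and 107 CPM in intermediate spermatids and 8.39 and 8.14 CPM in elongating spermatids with low Tnp1, a rise at the stages at which Cct8 fell.

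Clients and other chaperonins were described in the same way. Of 19 actin and tubulin genes, 10 were measured in late spermatocytes, with 2 at least 1.5-fold higher in KO (Tuba4a and Tuba8, against 3.68% of all genes at 10 CPM or more) and 0 lower (1.01%). In elongating spermatids with high Tnp1 15 were measured, with 0 higher (0.0212% of all genes) and 5 lower (Actg1, Tuba1a, Tuba1b, Tuba3a and Tuba3b, against 12.0%). Tuba3a had 37.4 CPM in KO and 107 CPM in WT there, and reads of Tuba3a and its near-identical copy Tuba3b may have been split between them. Tuba4a had 358 and 342 CPM in the same class. Their summed level was 7635 CPM in KO and 8143 CPM in WT late spermatocytes and 3957 and 4349 CPM in the high Tnp1 class, a smaller fall than that of the TRiC sum. The 6 tubulin cofactor genes, which assemble tubulin after TRiC, summed to 703 and 764 CPM in late spermatocytes and to 34.0 and 69.1 CPM in the high Tnp1 class. Both measured members there, Tbca and Tbcb, were 1.5-fold lower in KO (12.0% of all genes). Predicted free RNA is given for the TRiC genes only. What it added to low values of Tbca, Tbcb, Pfdn6 and the 5 lower actin and tubulin genes was not tested. The mitochondrial chaperonin Hspd1 and its lid Hspe1 together had 804 CPM in KO and 799.6 CPM in WT spermatogonia and 12.8 and 15.8 CPM in late spermatocytes, where the TRiC sum was highest. In spermatogonia both of these genes, 1 of 3 chaperonin-like Bardet-Biedl genes and both heat shock factors (Hsf1 and Hsf2) were measured at 10 CPM or more, and 0 of them were 1.5-fold higher (1.4% of all genes) or lower (4.25%) in KO.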

How the data were processed

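Per the labels' protocols, testes were dissociated with enzymes and poly(A) RNA of single cells was made into droplet libraries with the DNBelab C series kit. The authors deposited raw UMI counts per gene and barcode, made with PISA 0.12 per the file headers and with GRCm38 per the submitters' processing notes; the sources used here do not give the aligner, the annotation or the strand setting. Features were joined by symbol, and 97.5% were found in GENCODE M21. Each library has 1 sample, and 2168 barcode names occur in both, but they are running names and not sequences. No annotation of cells was used.

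A barcode was kept as a cell if it had at least 200 genes and no more than 20% of its counts on mitochondrial genes. Doublets were called with Scrublet in scanpy 1.11.5 and kept in the main values (622 KO cells, 4.48%, and 600 WT cells, 3.96%). Counts were scaled to 10000 per cell and logged, and 2991 variable genes (members and list genes left out), 40 components, 20 neighbours and Leiden clustering (igraph 0.11.9, resolution 1) gave 25 clusters. A cluster was named from at least 3 marker genes found in 10% or more of its cells. The intermediate class (Tnp1, Tnp2, Prm1 and Prm2 at 5% or more of counts) and the split of elongating spermatids at 10000 CPM of Tnp1 were set after the clusters were seen. CPM are the summed counts of a gene in a class and library per 1000000 counts of that class. Intervals are exact Poisson (levels), conditional binomial (ratios) and Clopper-Pearson (shares), with scipy 1.17.1 in Python 3.11.15, numpy 2.4.6, pandas 2.3.3 and scikit-learn 1.9.0, and figures used matplotlib 3.10.9.

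All 9 members are named. Of the other lists, members past 1.5-fold in the class described are named, otherwise the extremes and the most abundant; the cofactor values in other classes and Zfp830 were chosen after their values were seen. Genes of like pattern are the 5 with the highest Pearson correlation of log2(CPM + 5), of which 1 is not reported here. Members and lists were chosen with earlier results of these data known. The ratio and count rules were tested on counts simulated from a pooled profile of late spermatocytes, round spermatids or elongating spermatids with high Tnp1. Only genes averaging at least 50 CPM were used, and no difference in free RNA or cluster mix was put in. That test therefore does not cover the low members in condensing spermatids.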

Additional observations from a re-analysis of the deposited data

Results flagged for a closer look

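In 5 classes the KO and WT levels of Cct6b differed by at least 0.5 on the log2 scale, and not all in the same direction. The difference between classes was not tested. The log2 ratio of KO over WT was 0.51 in Sertoli cells, at 158 CPM in KO and 111 CPM in WT. It was -0.55 in spermatogonia, -0.94 in early spermatocytes, -1.03 in Leydig cells and -0.57 in interstitial stroma. In those 4 classes the measured level was 19.8 to 34.6 CPM in KO and 33.8 to 51.5 CPM in WT, with predicted free RNA of 12.5 to 19.2 CPM in KO and 28.8 to 39.9 CPM in WT. After subtraction of that prediction the log2 ratio in Leydig cells was 1.44, on 2.26 CPM in KO and 0.833 CPM in WT. Spermatogonia were left with 9.995 CPM in KO and 4.97 CPM in WT, early spermatocytes with 8.02 and 8.15 CPM, and stroma with 15.4 and 11.5 CPM. Sertoli cells were left with 92.8 CPM in KO and 41.99 CPM in WT. The direction was thus turned in Leydig cells, spermatogonia and stroma, nearly gone in early spermatocytes and kept in Sertoli cells.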

How the results depend on the processing

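Of 156 alternative values for summed levels, counts of lower genes, Cct6b shares and stage steps, 101 stayed within the counting interval or within 1.5 times the main count and 55 moved. The other values covered single genes, and the sums, member counts and Cct6b shares not among those 156. They also covered shares of cells with a UMI and shares of all genes. Of these other values 932 stayed and 393 moved, among them all 44 shares of cells taken without thinning. A further 5, of single genes at least 1.5-fold apart in the main values, changed sign. These 5 came from subtracting predicted free RNA: Tcp1 in Leydig cells became 0.32, Cct4 in elongating spermatids with high Tnp1 0.11, Cct6a in those with low Tnp1 0.30 and in macrophages 0.63, and Cct6b in Leydig cells 1.44. Smaller ratios also changed sign under it, such as Cct6b in spermatogonia (9.995 CPM in KO and 4.97 CPM in WT) and in stroma (15.4 and 11.5 CPM), and Cct3, Cct4, Cct5 and Cct7 in Leydig cells. In these cases that construction lowers WT more than KO because WT had more predicted free RNA. For the other values the cause was not tested.

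The log2 KO over WT sum of the 8 genes in late spermatocytes was 0.0163 with TMM, 0.0113 after free RNA and -0.0061 at an equal cluster mix. In round spermatids it was 0.0409 with TMM, -0.0614 as a mean per cell, 0.0301 after free RNA and 0.0092 at an equal mix. In intermediate spermatids it was -0.26 at resolution 2, -0.0950 with TMM, -0.22 per cell and -0.15 after free RNA. Elongating spermatids with high Tnp1 had 0.0364 with TMM, -0.32 without protamine and transition protein genes, -0.11 after free RNA and -0.31 at an equal mix. In those with low Tnp1 it was -0.0254 with TMM, -0.38 per cell, -0.0853 after free RNA and -0.28 at an equal mix.

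Counts of genes 1.5-fold lower in KO were 1 in spermatogonia without doublets and 1 at resolution 2. In early spermatocytes they were 0 with a strict cell filter (500 genes and 10% mitochondrial counts), 2 at resolution 2 and 0 after free RNA. In intermediate spermatids the count was 1 after free RNA. The high Tnp1 class had 3 with TMM, 2 after free RNA and 3 at an equal mix, and the low Tnp1 class had 2 with TMM, 0 after free RNA and 2 at an equal mix.

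The Cct6b percent in KO spermatogonia was 8.20 per cell, 2.65 after free RNA and 10.8 per exonic base, an alternative chosen after seeing the data. In WT spermatogonia it was 1.19 after free RNA and 13.4 per base. In late spermatocytes it was 83.5 per base in KO, and 69.8 per cell and 82.9 per base in WT. In elongating spermatids with low Tnp1 it was 98.3 after free RNA and 98.8 per base in KO, and 98.8 after free RNA and 98.1 per base in WT.

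The log2 step of the summed genes from early to late spermatocytes was 0.76 in KO with the strict filter, and in WT 0.62 with it, 0.76 at resolution 2, 0.87 per cell and 0.92 after free RNA. From round to intermediate spermatids it was -1.60 in KO without protamine and transition protein genes, -1.58 per cell and -1.89 after free RNA. In WT that step was -1.61 at resolution 2, -1.33 without those genes, -1.42 per cell and -1.71 after free RNA.

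No paired analysis was possible because each genotype has 1 library. Leaving out a replicate was not possible for the same reason. Free RNA subtraction gave no macrophage ratio for 8 of the 9 genes. Depth limits the small classes most: macrophages held 726857 counts in KO and 725524 in WT, and interstitial stroma 519911 and 913273.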
